A study of Mus musculus with 2 samples.

Results

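Conventional type 1 dendritic cells (cDC1) were taken from droplet single-cell RNA sequencing of leukocytes sorted from AT3 tumors, which grow from a mouse mammary tumor line. A cell was selected when it held 500 to 7500 detected genes, at most 15% mitochondrial counts, at least 2 counts of Xcr1 and Clec9a in sum, under 3 of Fscn1, at most 1 of Cd3d, Cd3e and Cd3g in sum, and under 30 of C1qa, C1qb and C1qc in sum. This selected 67 of 6363 cells, 27 of 3565 in the library labelled WT and 40 of 2798 in the library labelled 6PGDKO. Each RNA molecule was counted once by its molecular tag (unique molecular identifier, UMI), so a UMI below stands for 1 captured molecule. The WT library came from Pgd fl/fl mice and the 6PGDKO library from Pgd fl/fl LysMCre mice, so both groups carried the floxed Pgd allele and only the second carried Cre. Each library was a pool of tumors from 10 female mice aged 6 to 12 weeks at use, harvested on day 30 after injection, and there was 1 library per genotype. No test between the genotypes was therefore possible, and the intervals given are exact 95% intervals that cover counting error only.

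cDC1 are the dendritic cells that take up material from dying cells and present its peptides on MHC class I to CD8+ T cells, a process called cross-presentation. They depend on the transcription factors IRF8 and BATF3 and on the growth factor FLT3 ligand, and their receptor XCR1 binds XCL1, a chemokine made by NK cells and activated CD8+ T cells. In tumors they take up antigen, mature, raise CCR7 and leave for the draining lymph node, where they are known for priming CD8+ T cells. LysMCre expresses Cre from the lysozyme gene Lyz2, which is active in macrophages, monocytes and neutrophils and in only a part of dendritic cells.

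Of the groups compared, the targeted gene fell most in C1q macrophages, which held the most Lyz2 in WT. Pgd, which encodes 6-phosphogluconate dehydrogenase of the pentose phosphate pathway, stood at 107.1 CPM (UMIs per 1000000 UMIs of the group) in C1q macrophages of WT and 27.2 in those of 6PGDKO, a log2 ratio of -1.98 (95% interval -2.22 to -1.74). In cDC1 it stood at 25.2 CPM from 10 UMIs in WT and 34.6 CPM from 22 UMIs in 6PGDKO, a log2 ratio of 0.46 (-0.68 to 1.70). No loss of Pgd was thus detectable in cDC1 at this depth, and the interval does not reach the ratio seen in macrophages. The WT level in cDC1 was, however, already near that of 6PGDKO macrophages and of T cells (38.5 and 31.5 CPM). Whether cDC1 lost Pgd from such a level was not tested. In T cells and Cd209a cells the log2 ratio of Pgd was -0.29 (-0.46 to -0.11) and -0.29 (-2.30 to 2.23), at WT Lyz2 levels of 499.7 and 335.2 CPM. Lyz2, whose coding sequence the Cre insertion disrupts, gave 74 UMIs in 16 of the 27 WT cDC1 and 3 UMIs in 3 of the 40 6PGDKO cDC1. Its WT level was 186.1 CPM in cDC1, 499.7 CPM in T cells and 3318.1 CPM in C1q macrophages. The T cell group was not limited on macrophage transcripts, and 24.5% of its WT and 37% of its 6PGDKO cells held a UMI of C1qa. The 3 WT cells with the most Lyz2 held 60.8% of its UMIs. Whether the Lyz2 of WT cDC1 came from these cells was not tested.

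**Figure D1:**
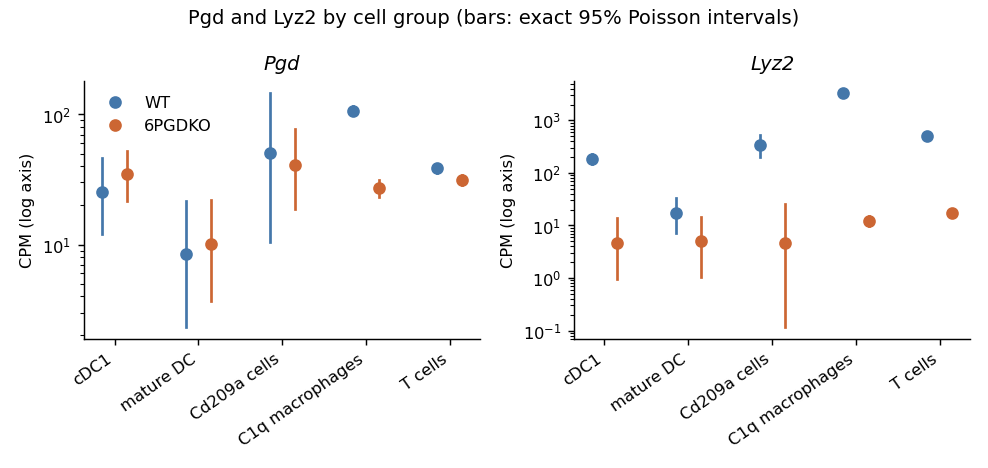
Level of Pgd (left) and Lyz2 (right) in 5 groups of cells, in CPM on a log axis, as the sum over all cells of a group in each library (blue, WT; orange, 6PGDKO) with exact 95% Poisson intervals. Pgd was at 107.1 CPM in WT and 27.2 CPM in 6PGDKO C1q macrophages, while its intervals overlapped in cDC1, mature dendritic cells and Cd209a cells. Lyz2 was lower in 6PGDKO in every group plotted. In mature dendritic cells this rested on 8 and 3 UMIs, and the interval of the log2 ratio includes 0 (-4.30 to 0.31).

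The selected cells were deep, and most oligonucleotide counts of each were those of its own library. A WT cell held 7100 to 21770 UMIs (median 15267) and a 6PGDKO cell 7142 to 36777 (median 14831), with a median of 2867 and 2923 detected genes. The cells of both genotypes had been tagged with different oligonucleotides and loaded together, and the oligonucleotide of the cell's own library made up 79.4% to 98.9% of its oligonucleotide counts in WT and 82.1% to 98.5% in 6PGDKO. The libraries shared 0 barcodes. Where cells loaded together are split into libraries by these oligonucleotides, both values follow from the split and cannot check it. The labels name a sort on CD45 in one place and on CD11b in another. The methods of the study give live CD45+ cells for the sequencing, and T cells made up 1960 of 3565 WT and 1522 of 2798 6PGDKO cells. Itgam, which encodes CD11b, gave 1 UMI in WT cDC1 and 4 in 6PGDKO cDC1.

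Since the rule used Xcr1 and Clec9a, their levels are a description of the choice. Xcr1 ranged from 0 to 18 UMIs per cell in WT (median 5) and from 0 to 21 in 6PGDKO (median 4), and Clec9a, a receptor for actin exposed on dead cells, from 0 to 9 (median 2) and from 0 to 11 (median 2). Both genes were found in 23 of 27 WT cells and 28 of 40 6PGDKO cells. At the limit of the rule, with exactly 2 UMIs of the pair, stood 2 WT and 8 6PGDKO cells, whose 18 other identity genes summed to 34 to 66 UMIs in WT and 1 to 111 in 6PGDKO. Just outside it, with 1 UMI of the pair, stood 13 WT cells with 1 to 130 of these UMIs (median 33) and 11 6PGDKO cells with 2 to 51 (median 17), against medians of 133 and 103 in cells over the limit. Cells just outside the limit thus overlapped with those at it. Of all cells with 2 or more UMIs of the pair, the Cd3 limit removed 17 WT and 31 6PGDKO cells, the Fscn1 limit 2 in each, and the C1q limit 7 and 4. The cells removed by the Cd3 limit held medians of 53 and 99 UMIs of the other identity genes, the latter near that of the 6PGDKO cells selected, so the rule left out many barcodes with cDC1 transcripts.

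**Figure D2:**
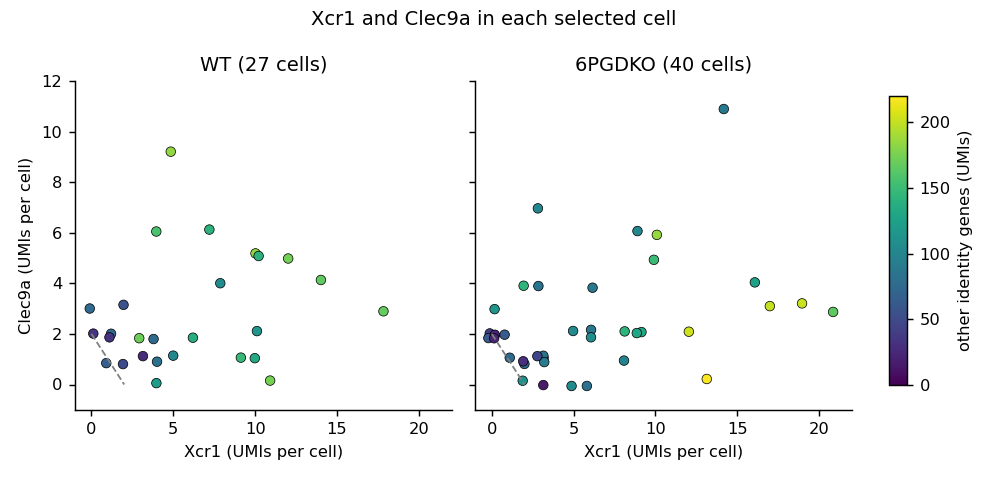
Xcr1 (horizontal) and Clec9a (vertical) UMIs in each selected cell of WT (left) and 6PGDKO (right), with small random shifts so that points do not hide each other, coloured by the summed UMIs of 18 other identity genes; the dashed line marks a sum of 2, the limit of the rule. Cells near the limit in 6PGDKO include the lowest sums, down to 1 UMI, while WT cells held at least 27.

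Markers outside the rule were found in most cells, but not in all. Among the other identity genes, Wdfy4, needed for cross-presentation of cell-bound antigen, had a UMI in 92.6% of WT and 87.5% of 6PGDKO cDC1, against 3.47% and 8.80% of T cells. After each cell had been thinned to 2000 UMIs, the shares were 48.1% and 55% in cDC1 and 0.729% and 1.81% in T cells, whose unthinned median depths were 5465 and 7105 UMIs. Plet1, a surface protein of epithelial progenitors and some dendritic cells, had a UMI in 92.6% and 80% of cDC1 against 2.09% and 6.44% of T cells, and in 70.4% and 55% against 0.885% and 3.41% after thinning. Genes of other lineages were partly absent and partly present. In WT and 6PGDKO, 2 and 2 of 12 macrophage genes, 4 and 4 of 8 monocyte genes, 5 and 7 of 8 neutrophil genes, 4 and 4 of 8 B cell genes, 4 and 0 of 10 T cell genes and 6 and 0 of 8 NK cell genes gave 0 UMIs, among them Mrc1, Pf4, Chil3, Vcan, S100a9, Csf3r and Cd79a in both libraries. Present were Plac8 (112 and 280 UMIs) and Ly6c2 (31 and 81) of the monocyte list, Apoe (50 and 58) and Cd68 (39 and 43) of the macrophage list and Ighm (30 and 45) of the B cell list. The rule itself limited Fscn1, the C1q genes and the Cd3 genes.

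Cells with many UMIs of another lineage numbered 2 in WT and 7 in 6PGDKO. One 6PGDKO cell carried 1187 UMIs of 6 mast cell genes (Mcpt2, Cma1, Tpsb2, Mcpt4, Cpa3 and Tph1), with 679 of Mcpt2 and 257 of Cma1, both mast cell proteases, beside 2 UMIs of Clec9a, 0 of Xcr1 and 1 of the other identity genes. No other selected cell held a UMI of these 6 genes. Another 6PGDKO cell carried 103 UMIs of the mature dendritic cell list, with 43 of Ccr7 and 26 of Ccl22, and 5 of the other identity genes. A pair of 6PGDKO cells carried 96 and 213 UMIs of the plasmacytoid dendritic cell list, with 41 and 107 of Ly6d and 12 and 8 of Siglech, 2 UMIs of Clec9a each and 0 of Xcr1. The same pair held 90 and 85 UMIs of the monocyte list, and no other selected cell reached 50. These cells met the rule through Clec9a alone and lacked or nearly lacked Wdfy4.

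The remaining ones held from 16 to 220 UMIs of the other identity genes beside those of another lineage. The 2 deepest 6PGDKO cells, with 31138 and 36777 UMIs, carried 46 and 90 UMIs of the NK cell list together with 201 and 220 of the other identity genes, and the deeper one held 87 UMIs of Gzmc and 47 of Xcl1. A 6PGDKO cell with 14 UMIs of the epithelial list held 26 of Lcn2, 25 of Igfbp5 and 16 of the other identity genes. A pair of WT cells carried 49 and 36 UMIs of the macrophage list, with 171 and 34 of the other identity genes. The latter cell met the rule through Clec9a alone, with 2 UMIs, and held 0 of Wdfy4 and 46 of the monocyte list. Whether these barcodes held more than 1 cell was not tested, and no doublet caller was run. The comparison of the libraries was recomputed without these cells, called cells of mixed or other lineage below, which left 25 WT and 33 6PGDKO cells.

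The share of cDC1 among all cells was higher in 6PGDKO. It was 0.757% (0.5 to 1.1) in WT and 1.43% (1.02 to 1.94) in 6PGDKO, a ratio of 1.89 (1.13 to 3.2). The rule counts UMIs and the libraries differed in depth, with a median of 5554 UMIs per cell over all WT cells and 7926 over all 6PGDKO cells. With every cell thinned to 2000 UMIs the rule selected 8 WT cells (0.233%) and 13 6PGDKO cells (0.49%). Without the cells of mixed or other lineage it was 0.701% in WT and 1.18% in 6PGDKO. Against C1q macrophages the ratio of cDC1 was 1.65 between the libraries (0.988 to 2.8), and among cells with at most 1 Cd3 UMI and no UMI of the B cell list it was 1.85 (0.826 to 4.55), both with intervals that include 1. The latter set holds only 9 of the WT and 23 of the 6PGDKO cDC1. Within the dendritic cells, made up here of cDC1, mature dendritic cells and Cd209a cells, cDC1 were 27 of 72 cells in WT (37.5%) and 40 of 113 in 6PGDKO (35.4%). Cd209a cells numbered 6 and 24 among them. Against mature dendritic cells alone the ratio of cDC1 between the libraries was 1.18 (0.706 to 2), with an interval that includes 1.

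Of the genes that set cDC1 apart, Xcr1 and Plet1 lie on the same chromosome, and their promoters are shown because Xcr1 was used by the rule and Plet1 differed most between the libraries among the 4 markers given for these cells. Positions and sequences are those of RefSeq on GRCm38.p6. Xcr1 spans chr9:123852315-123862029 and Plet1 chr9:50494525-50505639, and the 250 bases before each start are given 5′ to 3′ on the strand of the gene, chr9:123862030-123862279 on the minus strand for Xcr1 and chr9:50494275-50494524 on the plus strand for Plet1, with capitals for a match to TGANTCA, the core letters bound by AP-1 and BATF factors.
Xcr1: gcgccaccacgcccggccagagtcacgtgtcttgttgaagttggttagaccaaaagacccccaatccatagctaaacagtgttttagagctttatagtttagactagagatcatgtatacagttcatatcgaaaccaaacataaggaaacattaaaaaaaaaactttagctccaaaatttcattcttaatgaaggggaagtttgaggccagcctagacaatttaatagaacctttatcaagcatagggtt
Plet1: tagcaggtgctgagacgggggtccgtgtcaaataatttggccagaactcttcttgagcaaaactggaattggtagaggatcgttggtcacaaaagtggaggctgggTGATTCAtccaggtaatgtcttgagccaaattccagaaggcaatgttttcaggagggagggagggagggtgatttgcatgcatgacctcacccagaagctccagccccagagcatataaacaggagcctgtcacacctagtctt
The letters searched on both strands were TGANTCA and GAAA repeated after 2 bases of any kind, a tandem form bound by interferon regulatory factors. Plet1 held 1 match to TGANTCA, 144 bases before its start, and Xcr1 held no match to either. Of the 20 identity genes, 15 were matched, with 17 promoters, of which 2 held TGANTCA (11.8%), those of Plet1 and Zbtb46, and 0 held the GAAA repeat. Of 32851 promoters of all genes, 7.81% held TGANTCA and 3.44% held the GAAA repeat. For the identity genes and for all genes, matches were counted over the whole promoter sequence of the source, without a cut to the 250 bases shown. These shares describe letters in a short window and not binding.

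cDC1 differed from mature dendritic cells, chosen by Fscn1 and Ccr7, in genes of antigen uptake and maturation. Of 4168 genes with enough UMIs, 183 (4.39%) were at least 4-fold higher and 246 (5.9%) at least 4-fold lower in cDC1 in both libraries. Of 17 identity genes outside the rule, 9 were higher and 0 lower. Naaa, a lysosomal amidase, stood at 817.5 and 556.1 CPM in cDC1 (WT and 6PGDKO) and at 8.49 and 0 CPM in mature dendritic cells. Rab7b, a regulator of late endosomal traffic, stood at 256.6 and 287.5 CPM against 2.12 and 1.68, the latter from 1 UMI in each library. By contrast, Irf8 (1554.4 and 1247.3 against 1344.3 and 1187.1 CPM) and the receptor gene Flt3 (153.4 and 133.5 against 133.8 and 131.3 CPM) were at like levels in both cell groups, and Batf3 was lower in cDC1 (130.8 and 132.0 against 259.1 and 254.3 CPM). These regulators of dendritic cells were thus not higher in cDC1.

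Of 6 genes of the list for sensing and uptake of dead cells, 4 were higher in cDC1 than in mature dendritic cells (4.39% over all genes). The list also holds general sensors and adaptors, such as Unc93b1 and Myd88. Genes of cytokine output and costimulation were lower in part. Dnase1l3, a nuclease that digests DNA of dead cells, stood at 578.5 and 386.4 CPM against 48.8 and 64, and Havcr2, which encodes the checkpoint receptor TIM-3, at 246.5 and 194.8 against 21.2 and 30.3. Of 14 cytokine genes, 5 were lower and 0 higher (5.9% and 4.39% over all genes). Il12b, the subunit of IL-12 and IL-23, gave 3 and 4 UMIs in cDC1 (7.55 and 6.28 CPM) against 821.8 and 720.7 CPM in mature dendritic cells, and Ccl5 stood at 25.2 and 45.6 against 4446.9 and 2263.1 CPM. Of 13 genes of the costimulatory and checkpoint list, 5 were lower and 2 higher (5.9% and 4.39% over all genes). The list also holds receptors, and the receptor gene Havcr2 was among the higher. Cd274, which encodes PD-L1, stood at 12.6 and 18.9 against 259.1 and 343.5 CPM. H2-DMb1 stood at 832.5 and 675.5 against 40.3 and 35.4 CPM, and H2-DMa at 1063.9 and 870.3 against 110.4 and 151.5 CPM. These genes, which act in peptide loading, were the 2 of 14 on the MHC class II list that were at least 4-fold higher (4.39% over all genes).

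Against C1q macrophages, 138 of 9742 genes (1.42%) were at least 4-fold higher in cDC1 and 419 (4.3%) at least 4-fold lower in both libraries. Of 17 identity genes, 11 were higher, and of 9 macrophage genes outside the rule all 9 were lower. Flt3 was at 1.48 and 0.769 CPM in C1q macrophages, and Itgae, which encodes the integrin CD103, was at 452.7 and 350.3 CPM in cDC1 against 7.25 and 8.31. Apoe, an abundant lipid carrier of macrophages, was at 125.8 and 91.1 CPM in cDC1 against 18820.6 and 16871.1. The dominant RNA of the neighbouring macrophages was thus present in cDC1 at a small level in both libraries. Cells chosen by Cd209a numbered only 6 in WT and 24 in 6PGDKO. Against them, 23 of 2581 genes (0.891%) were higher and 40 (1.55%) lower. Irf8 was at 67 and 227.8 CPM in those cells, and S100a4, a calcium-binding protein of monocytic cells, was at 191.2 and 146.1 CPM in cDC1 against 4357.2 and 4337.9.

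**Figure D3:**
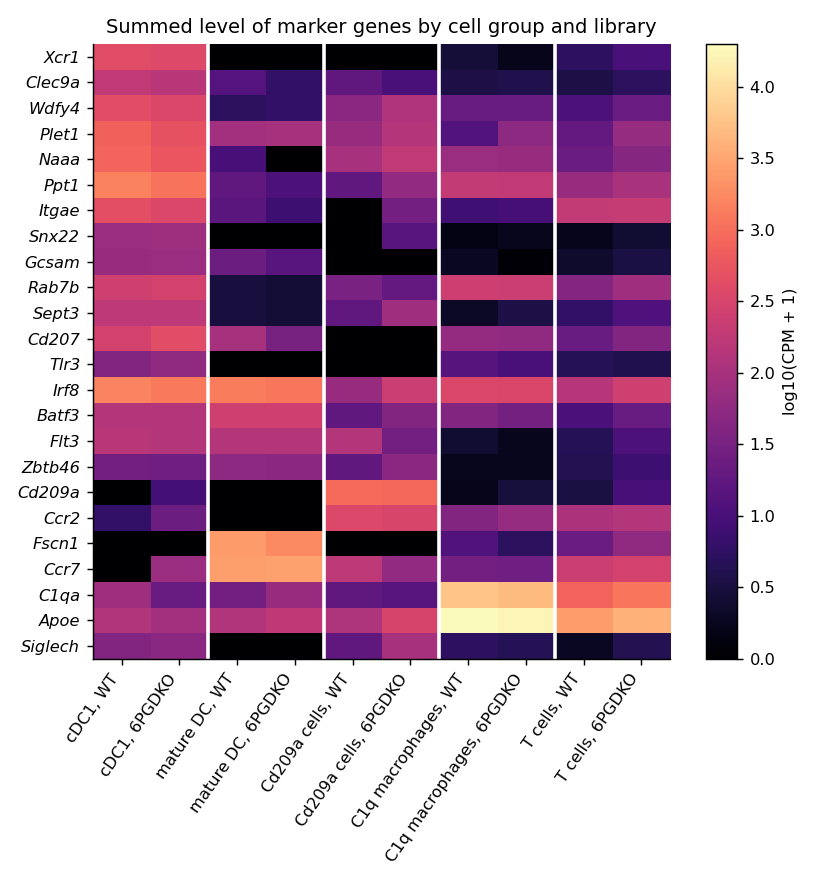
Level of 24 marker genes (rows) in cDC1, mature dendritic cells (mature DC), Cd209a cells, C1q macrophages and T cells of each library (columns), as log10 of CPM plus 1 from UMIs summed over the cells of a group. Naaa, Snx22 and Itgae, which the rule did not use, are bright in cDC1 and dark in mature DC, whereas Irf8, Batf3 and Flt3 are bright in both.

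Genes of the ligands of XCR1 and FLT3 were found mostly in T cells, the largest of the groups compared. Xcl1, the ligand of XCR1, was at 407.6 CPM in T cells of WT and 538.3 in those of 6PGDKO, and T cells held 85.9% and 85.8% of its UMIs. Flt3l was held by T cells to 85.1% in both libraries. T cells held 14174048 of 26959415 UMIs of all genes in WT and 15695134 of 28447905 in 6PGDKO. They also held 24.5% and 36.1% of the Xcr1 UMIs. In cDC1, Xcl1 gave 0 UMIs in WT and 65 in 3 6PGDKO cells. Of these, 47 and 17 lay in the 2 cells that also carried genes of the NK cell list. NK cells were not examined as a group. Among endosomal receptors, Tlr3, which senses double-stranded RNA, was at 40.2 and 55 CPM in cDC1 and gave 0 UMIs in mature dendritic cells, and Tlr11, which senses a profilin of protozoa, was at 30.2 and 25.1 CPM against 0 UMIs in mature dendritic cells and at most 0.917 CPM in T cells and C1q macrophages. Both were higher in cDC1 than in mature dendritic cells, T cells and C1q macrophages. The 6 WT Cd209a cells held 59671 UMIs in sum, where 3 UMIs stand for 50.3 CPM, too few to compare at these levels. Tlr12, which acts with Tlr11, was at 45.3 and 28.3 CPM in cDC1 and at 53.1 and 39.5 CPM in C1q macrophages, and so was not highest in cDC1.

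Between the libraries, the 3685 genes with at least 30 UMIs in cDC1 had a median log2 ratio of 6PGDKO over WT of 0.09. Of these genes 58.2% had a positive ratio, 10.6% an interval above 0 and 5.75% an interval below 0. At least 2-fold higher in 6PGDKO were 260 genes (7.06%), and at least 2-fold lower were 52 (1.41%), and the intervals of 218 and 50 of these did not include 0. The number of higher genes moved with few cells, and was 157 of 3113 genes without the cells of mixed or other lineage, 140 without cells holding over 2 UMIs of the T, B and NK cell lists, and 105 of 2606 without the cells rich in mitotic transcripts described next. The number of lower genes without the cells of mixed or other lineage was 54.

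Of the lists read between the libraries, the cell cycle list had the most genes past 2-fold. Of its 20 genes with at least 30 UMIs, 17 were at least 2-fold higher in 6PGDKO and 0 lower (7.06% and 1.41% over all genes). The median log2 ratio was 1.67, and 1.56 over 13 genes without the cells of mixed or other lineage. It was 1.15 without cells holding any Cd3 UMI, 0.82 without cells holding over 2 UMIs of the T, B and NK cell lists and 0.38 with cells thinned to 2000 UMIs. Mki67, a marker of cycling cells, gave 9 UMIs in 6 WT cells and 100 in 13 6PGDKO cells (22.6 and 157.1 CPM, log2 ratio 2.79, 1.81 to 3.97). Pcna, the sliding clamp of DNA replication, gave 26 UMIs in 7 cells and 105 in 29 cells (65.4 and 164.9 CPM, log2 ratio 1.33, 0.70 to 2.01). Stmn1, a regulator of microtubules, gave 50 UMIs in 3 WT cells and 265 in 17 6PGDKO cells. At least 2-fold higher were both genes of replication, such as Tyms (1.61), Mcm3 (1.56) and Mcm7 (12.6 and 50.3 CPM), and genes of mitosis, such as Top2a (1.98), Cdk1 (1.74) and Birc5 (1.51).

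The mitotic transcripts sat in a minority of cells in both libraries. The sum of 12 mitotic genes (Mki67, Top2a, Ccna2, Ccnb1, Ccnb2, Cdk1, Birc5, Ube2c, Pclaf, Rrm2, Nusap1 and Cenpf) reached 5 UMIs in 3 of 27 WT cells (11.1%, 2.35 to 29.2) and in 13 of 40 6PGDKO cells (32.5%, 18.6 to 49.1). The intervals overlap. In both libraries most cells held 0 of them, 15 in WT and 22 in 6PGDKO, and 3 cells in each library lay near the limit, at 3 to 7 UMIs. Without the cells of mixed or other lineage the counts were 3 of 25 (12%) and 10 of 33 (30.3%). The cells that reached the limit were deeper in 6PGDKO, with a median of 20647 UMIs against 11828 in the others, and after thinning all cells to 5000 UMIs the shares with at least 2 mitotic UMIs were 18.5% (6.3 to 38.1) and 27.5% (14.6 to 43.9).

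**Figure D4:**
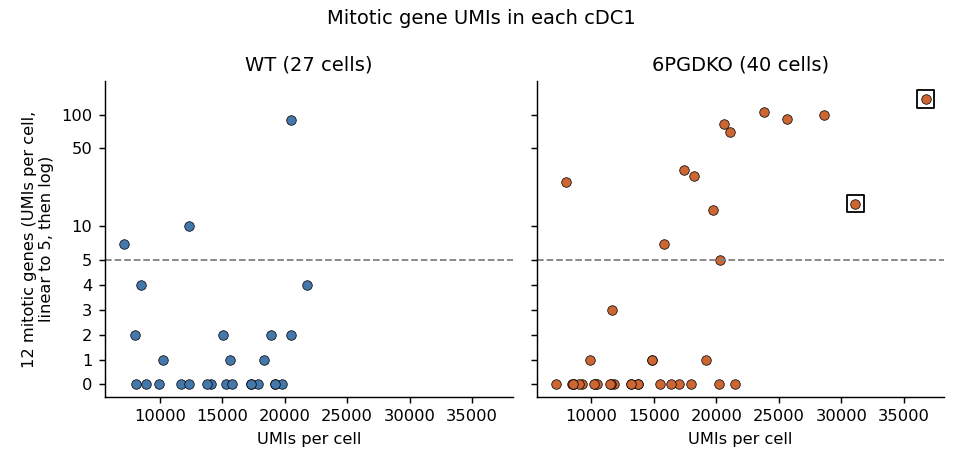
Sum of 12 mitotic genes (vertical, linear to 5 UMIs and logarithmic above) against all UMIs (horizontal) for each cDC1 of WT (left) and 6PGDKO (right); the dashed line marks 5 UMIs and squares mark the 2 cells with NK cell genes. At or above the line are 3 of 27 WT cells and 13 of 40 6PGDKO cells, the latter with a median of 20647 UMIs.

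Values for other cell groups stood as follows. The share of cells at 5 or more mitotic UMIs was 10.8% in WT and 9.84% in 6PGDKO for C1q macrophages, 8.62% and 15.2% for T cells, and 0% and 4.08% for mature dendritic cells. The median log2 ratio of the cell cycle list was -0.07 in C1q macrophages and 0.39 in T cells. The difference between the cell groups was not tested. Within the 6PGDKO library, cDC1 rich in mitotic transcripts held Wdfy4 at 358.7 CPM against 352.0 in the other cDC1, Irf8 at 1138.7 against 1336.5 and Naaa at 689.5 against 446.4. These genes, which the rule did not use, were thus found in both sets of cells. Both sets include cells of mixed or other lineage, and these levels were not recomputed without them. Without the cells rich in mitotic transcripts in both libraries, the median of the cell cycle list was -0.03, over the 3 genes that still had enough UMIs.

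Among single genes chosen by size and by spread over cells, 12 higher in 6PGDKO were named, none of them on the cell cycle list. Several are known to act in replication or division. Tk1, a thymidine kinase of replicating cells, gave 2 and 35 UMIs (log2 ratio 3.45, 1.49 to 6.55), Spc24 of the kinetochore 4 and 62 (3.28), Gmnn, which prevents a second round of replication, 3 and 32 (2.74, 1.06 to 5.09), the histone gene Hist1h2ap 31 and 333 (2.75) and Cdca3 4 and 35 (2.45). The histone gene Hist1h2ae and the cyclin-dependent kinase inhibitor Cdkn2d had log2 ratios of 2.56 and 2.52. Ddit3, which encodes the stress transcription factor CHOP, gave 2 UMIs in 2 WT cells and 33 in 20 6PGDKO cells (5.03 and 51.8 CPM, log2 ratio 3.37, 1.40 to 6.47), with a log2 ratio of 3.22 without the cells of mixed or other lineage. Suz12, a subunit of Polycomb repressive complex 2, gave 5 UMIs in 4 cells and 45 in 23 cells (log2 ratio 2.49), and Ppp2r2d, a subunit of protein phosphatase 2A, 3 and 31 (2.69, 1.01 to 5.04). Gm26532 (3.32) and 4930503L19Rik (2.59) completed the 12 genes.

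The 12 genes lower in 6PGDKO were of mixed kinds and smaller in size, with log2 ratios of -1.90 to -1.34. Egr1, an immediate early transcription factor, was the most abundant, with 148 UMIs in 20 WT cells and 91 in 22 6PGDKO cells (372.3 and 142.9 CPM, log2 ratio -1.38, -1.77 to -0.99), and at -1.35 without the cells of mixed or other lineage. In mature dendritic cells Egr1 had a log2 ratio of -0.54, in C1q macrophages of -0.33, in T cells of 0.15 and in Cd209a cells of 1.71. Usp53 gave 28 and 12 UMIs (-1.90), Rasgrp4, a guanine nucleotide exchange factor for Ras, 23 and 11 (-1.74), the transcriptional repressor Klf3 29 and 16 (-1.54) and the ubiquitin ligase Rnf20 20 and 12 (-1.42). The rest were Zdhhc23 (-1.49), Cdc14a (-1.46), Pgs1 (-1.38), Rnf157 (-1.38), Bcap29 (-1.37), Gm34084 (-1.36) and Dock11 (-1.34). With cells thinned to 2000 UMIs, Cdc14a (0.43) and Rnf157 (0.17) changed sign.

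**Figure D5:**
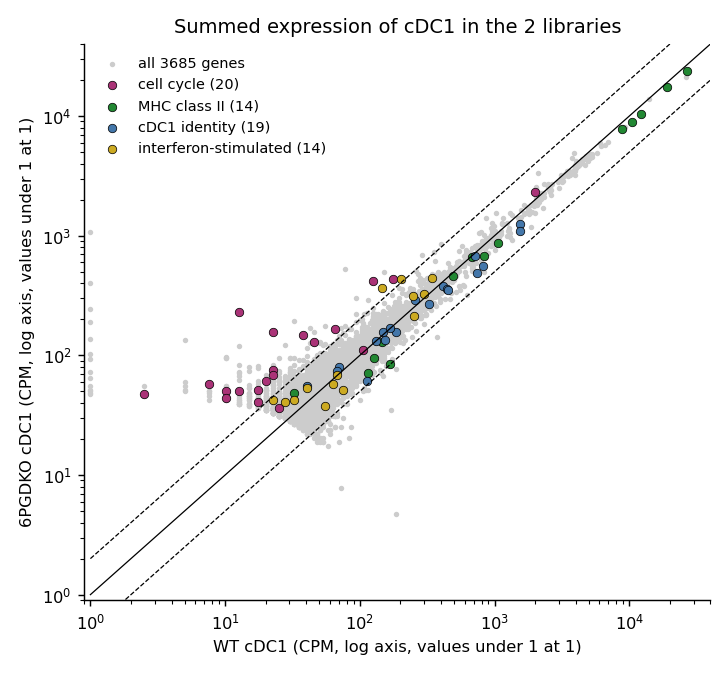
Summed expression of each of 3685 genes in WT cDC1 (horizontal) and 6PGDKO cDC1 (vertical), in CPM on log axes with values under 1 drawn at 1, and with 4 gene lists coloured; lines mark equality and 2-fold differences. Of 20 cell cycle genes, 17 lie on or above the upper 2-fold line, while all 14 MHC class II and all 19 identity genes lie within the 2-fold lines.

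The identity genes were modestly lower in 6PGDKO as a sum over all selected cells. Of 19 with enough UMIs, 0 were 2-fold different, 12 had a negative ratio and 7 an interval below 0 (5.75% over all genes), with a median log2 ratio of -0.20. Plet1 was at 744.5 CPM in WT and 491.7 in 6PGDKO (log2 ratio -0.60, -0.83 to -0.36), Irf8 at 1554.4 and 1247.3 (-0.32, -0.47 to -0.16; 0.25 after thinning to 2000 UMIs) and Batf3 at 130.8 and 132.0 (0.01, -0.50 to 0.54). Wdfy4 also turned, from -0.32 to 0.12, after thinning, while the median of the list was -0.21 over the 10 genes that still had enough UMIs. Xcr1 and Clec9a, which the rule used, are among the 19 genes and enter these counts and the median. They differed by -0.13 (-0.42 to 0.17) and -0.26 (-0.71 to 0.20). Without the cells of mixed or other lineage the median was -0.06, Irf8 stood at -0.16 and Plet1 at -0.46, so the median moved towards that of all genes when those cells were left out. Per cell, Plet1 ranged from 0 to 63 UMIs in WT (median 7) and from 0 to 25 in 6PGDKO (median 8), and the 3 highest WT cells held 45.9% of the WT UMIs. Cd207, which encodes langerin and marks a part of tissue cDC1, went the other way, at 291.8 CPM in 15 WT cells and 422.6 CPM in 23 6PGDKO cells (log2 ratio 0.53, 0.22 to 0.86), with 28.6% of the 6PGDKO UMIs in 1 cell.

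Antigen presentation genes were close between the libraries. Of 24 MHC class I and cross-presentation genes, 0 differed by 2-fold and the median log2 ratio was 0.07. Of 14 genes of the MHC class II list, 13 were lower in 6PGDKO by less than 2-fold, 9 with an interval below 0 (5.75% over all genes), and the median was -0.20. The list also holds Ciita, Cst3, Ctss, Lgmn and Ifi30, which encode no class II chain, and Cst3 is among the 9 (-0.18, -0.22 to -0.15). H2-Ab1, the beta chain of I-A, was at 12115.9 and 10425.8 CPM (log2 ratio -0.22, -0.27 to -0.16), and H2-Ob, part of the inhibitor of peptide loading H2-O, at 168.5 and 84.8 CPM (-0.99, -1.53 to -0.45). Without the cells of mixed or other lineage the class II median was -0.07 and H2-Ab1 stood at -0.07.

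The interferon-stimulated genes had a median log2 ratio of 0.35, with 2 of 14 at least 2-fold higher in 6PGDKO and 0 lower (7.06% and 1.41% over all genes). Isg15, a ubiquitin-like modifier, gave 58 UMIs in 15 WT cells and 231 in 25 6PGDKO cells (145.9 and 362.9 CPM, log2 ratio 1.31, 0.89 to 1.76). Ifitm3, a membrane protein that blocks virus entry, gave 80 UMIs in 9 cells and 278 in 20 cells (log2 ratio 1.12, 0.75 to 1.5). Both were spread unevenly, since the 3 highest cells held 58.6% of Isg15 UMIs and 91.2% of Ifitm3 UMIs in WT, and 51.5% and 45.0% in 6PGDKO. Irf7, a transcription factor of the interferon response, had a log2 ratio of 0.15 with an interval that includes 0 (-0.19 to 0.48). T cells of the same libraries had log2 ratios of 0.21 for Isg15 and 0.60 for Ifitm3, at levels of 214.8 and 247.8 CPM and of 192.7 and 292.8 CPM.

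Of 11 cytokine and chemokine genes with enough UMIs, 5 were at least 2-fold higher in 6PGDKO and 1 lower (7.06% and 1.41% over all genes). Their median log2 ratio was 0.86, and 0.60 over 6 genes without the cells of mixed or other lineage. This median was 0.11 by the mean of per-cell CPM, 0.18 without the highest cell of each gene, 0.21 with cells thinned to 2000 UMIs and -1.40 over the 5 WT and 8 6PGDKO cells with under 10 UMIs of the cell cycle list. Tgfb1 gave 28 UMIs in 19 WT cells and 92 in 30 6PGDKO cells (70.4 and 144.5 CPM, log2 ratio 1.04, 0.41 to 1.70), and 0.76 without those cells. Il1b was at 399.9 and 853.0 CPM (1.09, 0.84 to 1.36), and at 434.4 and 786.9 CPM in the T cell group (0.86), which also held macrophage transcripts. The part of RNA from other cells in the Il1b of cDC1 was not tested. Ccl22 gave 0 UMIs in WT and 35 in 6PGDKO, of which 74.3% lay in the cell with mature dendritic cell genes. Cxcl9, a chemokine that attracts CXCR3-bearing T cells, gave 79 UMIs in 12 WT cells and 155 in 14 6PGDKO cells (0.29, -0.11 to 0.70), and Cxcl10, another ligand of CXCR3, 21 UMIs in 3 WT cells and 3 in 3 6PGDKO cells. The 3 highest cells held 69.6% of Cxcl9 UMIs in WT and 77.4% in 6PGDKO, so a few cDC1 carried most of it in both libraries.

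Metabolic genes differed little. Of 13 glycolysis genes 12 had a positive ratio (58.2% over all genes), 0 were 2-fold different, and the median log2 ratio was 0.39, against 0.09 over all genes. Gapdh was at 960.8 and 1266.1 CPM (0.40, 0.22 to 0.58), Tpi1 at 181.1 and 279.6 (0.63, 0.22 to 1.04) and Pgk1 at 218.8 and 323.6 (0.56, 0.20 to 0.94). In the pentose phosphate pathway, 4 genes had enough UMIs and 0 differed by 2-fold. Tkt, a transketolase of the non-oxidative branch, stood at 93.1 and 130.4 CPM (0.49, -0.09 to 1.09), Taldo1 at 764.6 and 664.5 (-0.20, -0.42 to 0.01) and Pgls of the oxidative branch at 221.3 and 235.6 (0.09, -0.30 to 0.49). The immediate early and heat shock genes, which are known to rise when tissue is digested, had a median of -0.11, and the sign of this median changed in several of the recomputed sets. Of these 15 genes, 1 was at least 2-fold lower (1.41% over all genes), Egr1.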

How the data were processed

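For each of the 2 libraries the authors deposited the filtered output of Cell Ranger 6.1.2 (submitters' processing notes, which also name Seurat and mm10): raw counts of UMIs for 32285 genes and 12 multiplexing oligonucleotides per barcode, without the study's cell filters and not normalized. The annotation release is not given in the sources used here. Depth, grouping and cell rules are in the text above; other groups were mature dendritic cells (Fscn1 at least 3, Ccr7 at least 1), Cd209a cells (Cd209a at least 2), C1q macrophages (C1q sum at least 30) and T cells (Cd3 sum at least 3), the first 3 also limited to at most 1 Cd3 UMI. Cd209a cells and macrophages held at most 1 UMI of Xcr1 and Clec9a.

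UMIs were summed per group and library and scaled to CPM. Levels carry exact Poisson, shares Clopper-Pearson and ratios exact conditional intervals (Python 3.11.15, numpy 2.4.6, scipy 1.17.1, pandas 2.3.3, matplotlib 3.10.9; seed 1). They treat UMIs as independent and are too narrow where a few cells hold most UMIs. Ratios between libraries used genes with at least 30 UMIs in sum, comparisons with other groups at least 20 in each library; a gene at 0 in a library entered counts and medians at its bound against 3 UMIs. Single genes named were the 12 higher and 12 lower with the largest ratio, an interval without 0, UMIs in at least 10 cells and at most 25% of UMIs in 1 cell of the higher library; against other groups, the 15 highest and 10 lowest and genes of the lists. The cell rule, the 27 gene lists and the tests were chosen with earlier results of these data known. The sum of 12 mitotic genes and the limits for cells of mixed or other lineage (at least 20 UMIs of the mast cell genes, 10 of the NK cell or epithelial list, 30 of the macrophage list or 50 of the plasmacytoid or mature dendritic cell list) were set after the data were seen. The steps were tested on simulated counts. No doublet caller was run, and the GRCm39 genome was not used.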

Additional observations from a re-analysis of the deposited data

How the results depend on the processing

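With 1 library per genotype no value has a replicate check, and depth limits genes of a few UMIs. No paired analysis was possible because each genotype had 1 library. Over the alternatives, main values were within their spread in 106 cases, moved in 52 and reversed in 6, and values of single genes and other lists in 634, 87 and 16. At least 4 UMIs of Xcr1 and Clec9a gave a 6PGDKO share of 0.965% and medians of 0.45 for cytokines and 0.24 for glycolysis. Thinning every cell to 2000 UMIs selected 8 WT (0.233%) and 13 6PGDKO cells (0.49%) by the rule, and over the main cells gave 32 higher and 7 lower genes, medians of -0.10 for MHC class I, 0.21 for cytokines, 0.84 for interferon-stimulated genes, 0.38 for the cell cycle, 0.72 for glycolysis and 0.12 for immediate early genes, and reversed Wdfy4 (0.12), Irf8 (0.25), Btla (0.43), Dnajb1 (0.24), Cdc14a (0.43) and Rnf157 (0.17). Without any Cd3 UMI the medians were 1.12 for cytokines, 0.09 for costimulation, 1.15 for the cell cycle and 0.03 for immediate early genes, and Il10ra stood at 0.07. Without cells of over 2 lymphoid UMIs there were 140 higher genes and medians of 0.18 for MHC class I, 0.82 for the cell cycle and 0.13 for immediate early genes. Leaving out cells with 10 or more UMIs of the cell cycle list kept only 5 WT and 8 6PGDKO cells, with 32 higher genes, medians of -0.54 for identity, -0.34 for MHC class I, -0.44 for MHC class II, -1.40 for cytokines, 0.10 for interferon-stimulated genes, 0.81 for glycolysis and -0.56 for immediate early genes, and Irf8 at 0.01, Isg15 at -0.19, Ifitm3 at -2.08, Il1b at -0.04, Tgfb1 at -0.19 and Rel at -0.35. Median-of-ratios scaling, which shifted all ratios by 0.09, gave -0.29 for MHC class II and -0.20 for immediate early genes. The mean of per-cell CPM gave 0.11 for cytokines and -0.04 for immediate early genes, and leaving out each gene's highest cell gave 0.18 and -0.04 for these and 2.41 for the cell cycle. A minimum of 10 UMIs gave 911 higher and 267 lower genes, and of 1 UMI 1353 and 2229. A 2-fold limit gave 484 higher and 535 lower genes against mature dendritic cells, 149 and 121 against Cd209a cells and 449 and 1171 against C1q macrophages. The next alternatives were chosen after seeing the data. Without cells of 5 or more mitotic UMIs there were 105 higher genes, medians of 0.61 for cytokines, 0.12 for costimulation, -0.03 for the cell cycle and 0.24 for glycolysis, and Hist1h2ae at -0.12. Without cells of under 20 other identity UMIs the medians were 0.53 for cytokines and -0.03 for immediate early genes. Without cells of mixed or other lineage there were 157 higher genes and medians of -0.06 for identity, -0.07 for MHC class II, 0.60 for cytokines and 0.05 for immediate early genes. Except where a set kept fewer cells or UMIs, the cause of a move was not tested.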

Other observations

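Of 13 cytokine and growth factor receptor genes with enough UMIs, 1 was at least 2-fold higher in 6PGDKO cDC1 and 1 lower (7.06% and 1.41% over all genes). Their median log2 ratio was -0.04. Csf2rb2, the IL-3 receptor subunit of mice, gave 11 UMIs in 8 WT cells and 39 in 23 6PGDKO cells (1.15, 0.15 to 2.26), and Il10ra, a subunit of the IL-10 receptor, 43 UMIs in 16 cells and 34 in 17 cells (-1.02, -1.71 to -0.34). Of 9 homing receptor and integrin genes, 2 were higher (7.06% over all genes), Ccr7 and Ccr9, and 93.5% and 61.8% of their 6PGDKO UMIs lay in 1 cell each. Of 13 dendritic cell transcription factors, 2 were higher (7.06% over all genes). Tcf4, the regulator of plasmacytoid dendritic cells, gave 10 UMIs in 10 WT cells and 61 in 19 6PGDKO cells (1.93, 0.95 to 3.06), and 0.95 without the cells of mixed or other lineage. Relb, a subunit of NF-kB that acts in dendritic cell maturation, gave 7 UMIs in 5 cells and 31 in 15 cells (1.47, 0.26 to 2.90), and 1.35 without those cells.

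Of 11 glutathione and antioxidant genes, 0 differed by 2-fold and the median was 0.08. Hmox1, heme oxygenase, gave 49 UMIs in 9 WT cells and 44 in 8 6PGDKO cells (-0.83, -1.46 to -0.22). Of 8 genes of the list for sensing and uptake of dead cells, 7 had a negative ratio and 1 a positive one (58.2% over all genes), 0 were 2-fold lower, with a median of -0.35. Clec9a, which the rule used, is among the 8 (-0.26, -0.71 to 0.20). Dnase1l3 was at 578.5 and 386.4 CPM (-0.58, -0.85 to -0.32). Of 6 genes of the costimulatory and checkpoint list, which also holds the receptor genes Btla and Havcr2, 0 differed by 2-fold. Btla was at 113.2 and 61.3 CPM (-0.89, -1.54 to -0.23), and Cd86 at 274.2 and 345.6 CPM (0.33, 0.00 to 0.68).

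The lists of other lineages, summed over all cDC1, were 467.8 CPM in WT and 285.9 in 6PGDKO for macrophages, 367.2 and 592.2 for monocytes, 15.1 and 14.1 for neutrophils, 27.7 and 84.8 for T cells, 105.6 and 95.8 for B cells, 10.1 and 226.2 for NK cells, 5.03 and 53.4 for epithelial cells, 435.1 and 955.1 for plasmacytoid dendritic cells, 311.9 and 504.2 for Cd209a cells, 757.1 and 940.9 for mature dendritic cells and 709.3 and 854.5 for Langerhans-like cells. Their part in the differences between the libraries was examined only by leaving out cells, and was not tested otherwise.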
